A study of Sus scrofa domesticus with 12 samples.

Results

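The comparison described here is between volumetric muscle loss (VML) repaired with an extracellular matrix (ECM) scaffold and muscle that was exposed at surgery and left whole. Its members are 8 of the 12 RNA-seq libraries of the series, chosen by their labels: 6 ECM-repaired and 2 sham-operated peroneus tertius (PT) muscles of young adult female Yorkshire Cross pigs, each library from 1 limb of a different pig. In ECM-repaired limbs (pigs 013, 014, 018, 021, 022 and 024) a block of the middle of the PT muscle was cut out and the defect was filled with a decellularized scaffold, and in sham-operated limbs (pigs 025 and 026) no muscle was removed. The labels name small intestinal submucosa (SIS) for all 6 scaffolds, whereas the study describes SIS and urinary bladder matrix (UBM) limbs, so the 6 limbs are called ECM-repaired and the scaffolds were not separated. Muscle was taken 12 weeks after surgery, as stated by the study. The groups differed in both the injury and the scaffold, and within these 8 limbs the part of each cannot be told apart. All tissue came from whole muscle pieces, and in such bulk RNA fewer cells of a type and less RNA per cell cannot be told apart. Both shams were left limbs.

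Skeletal muscle fibers are long cells filled with sarcomeres, in which myosin pulls on actin when calcium is let out of internal stores. After lesser injuries, satellite cells inside the basal lamina rebuild fibers, and fibroblasts and macrophages build and then clear a provisional matrix. When a whole block of muscle is lost, the basal lamina and its satellite cells are lost too, and the gap is usually filled with collagen-rich scar. Decellularized scaffolds are implanted to provide a matrix that host cells can enter and remodel.

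The authors estimated relative transcript levels as TPM (transcript abundances scaled to a constant sum per library). The study gives an average sequencing depth, but TPM hold no read counts, so the depth of each library is unknown. Precision is set by how few limbs there are. The sham and ECM-repaired libraries differed in composition. The 10 most abundant transcripts of sham-operated muscle, which include ACTA1 (skeletal muscle alpha-actin), GAPDH, MYL1 and CKM, held 36.5 and 31.6% of all TPM of named genes in the 2 shams, and 3.69 to 11.1% in the ECM-repaired limbs. Values were therefore rescaled for composition, and TPM as deposited are given beside them where the scale matters. Unless stated otherwise, levels below are rescaled TPM, given first for the shams of pigs 025 and 026 and then as the lowest, median and highest of the 6 ECM-repaired limbs. Log2 fold changes are fitted differences of log2(rescaled TPM + 0.5), ECM-repaired minus sham, with their standard error (SE), and understate the change of genes at low levels. A gene is said to have risen or fallen where limma's adjusted p was under 0.05.

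ECM-repaired and sham-operated muscle differed across much of the measured transcriptome. Of 8358 genes tested, 5049 (60.4%) passed the test, 2668 of them higher (31.9%) and 2381 lower (28.5%) in ECM-repaired muscle. Changes of at least 2-fold numbered 1905 higher (22.8%) and 1580 lower (18.9%). All 6 ECM-repaired limbs lay above both shams for 2790 genes (33.4%) and below both for 2498 (29.9%). The split between rises and falls depended on the scale. With TPM as deposited, 4091 genes were higher (48.9%) and 892 lower (10.7%), of which 3268 (39.1%) and 703 (8.41%) by at least 2-fold, and the median log2 fold change of the tested genes was 0.71 against 0.046 after rescaling. A group of genes is read below against these shares and medians, also where they are not repeated. A gene under 1 TPM in a sham was tested only if every ECM-repaired limb reached that level. Counts of rises that include such genes are therefore partly set by the filter. Without the sham of pig 025 there were 3331 calls and without that of pig 026 there were 4165. In both cases the remaining sham is assumed to vary like the limbs of the other groups.

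**Figure D1:**
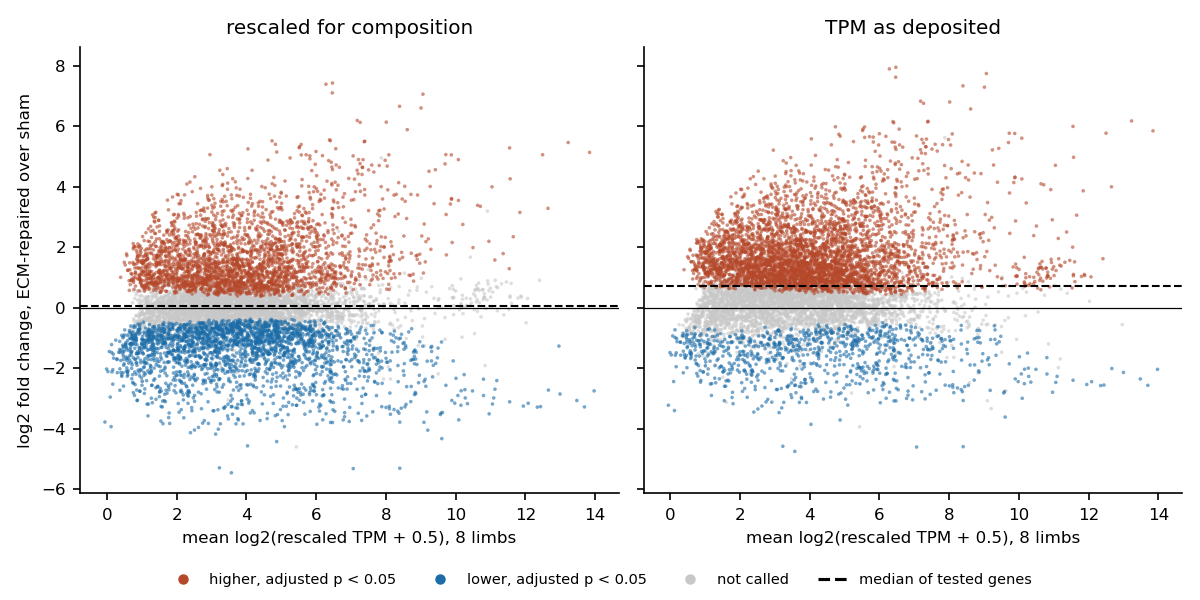
Log2 fold change of ECM-repaired over sham-operated muscle against mean abundance for the 8358 tested genes, with values rescaled for composition (left) and TPM as deposited (right). Points are genes and the dashed line is the median of the tested genes, at 0.046 on the left and 0.71 on the right, where the falls lie closer to 0 and the rises farther from it.

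Among the 12 largest falls, MYH4, the fastest myosin heavy chain, stood at 2971 and 1511 in the shams and at 9.91, 62.1 and 319 in ECM-repaired limbs (log2 fold change -5.31 ± 1.05 SE, limma adjusted p = 0.00131). The lowest values were those of pigs 018 and 014, and no ECM-repaired limb reached a sham. MYH1, the heavy chain of fast type 2X fibers, stood at 9062 and 5996 and at 74.9, 746 and 849 (-4.32 ± 1.06, limma adjusted p = 0.00446). FBXO40, a ubiquitin ligase component of muscle, fell from 186 and 165 to between 1.33 and 16.2. CMYA5, which links the sarcomere to the membrane, fell from 339 and 249 to between 2.64 and 28.6. PPP1R3A, which holds a phosphatase on glycogen, PVALB, the calcium buffer of fast fibers, and SMYD1, a methyltransferase needed to assemble sarcomeres, fell by 3.93, 3.85 and 3.83 on the log2 scale. LOC106505524, a locus with no symbol, had the second largest fall, of 5.30 on the log2 scale, and the others were MYOM2, MYBPC2, PDE4DIP and ASB11. MYOM2 did not pass without pig 025 (limma adjusted p = 0.0517). For each of the 12, every ECM-repaired limb lay below both shams.

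The largest rise was that of LOC106507869, a locus with no symbol, at 1.35 and 1.37 in the shams and at 170, 370 and 572 in ECM-repaired limbs (7.43 ± 0.50, limma adjusted p = 2.37e-06). ACAN, the core protein of the cartilage proteoglycan aggrecan, stood at 1.45 and 0.931 in the shams and at 171, 274 and 499 in ECM-repaired limbs (7.39 ± 0.47, limma adjusted p = 2.37e-06). PTN, a heparin-binding growth factor, stood at 0.878 and 3.00 and at 181, 277 and 567. ASPN, a small leucine-rich proteoglycan that binds collagen, stood at 9.42 and 18.2 and at 1294, 1777 and 2848. The lowest ECM-repaired limb was thus far above the higher sham for each of these. SFRP2, a secreted Wnt modulator, stood at 9.13 and 11.02 and at 852, 1010 and 1370 (6.66 ± 0.30, limma adjusted p = 5.62e-07). POSTN, the adhesive matrix protein periostin, stood at 11.8 and 22.02 and at 1345, 1690 and 1902. COL8A1, FNDC1, S100A4, the retinoic acid-binding proteins CRABP1 and CRABP2, and the locus LOC102160657 made up the rest of the 12, with log2 fold changes of 5.52 or more. LOC106507869, ACAN, PTN and LOC102160657 were each under 1 TPM as deposited in at least 1 sham. They were tested only because every ECM-repaired limb held at least 1 TPM, so their place here is partly set by the filter.

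**Figure D2:**
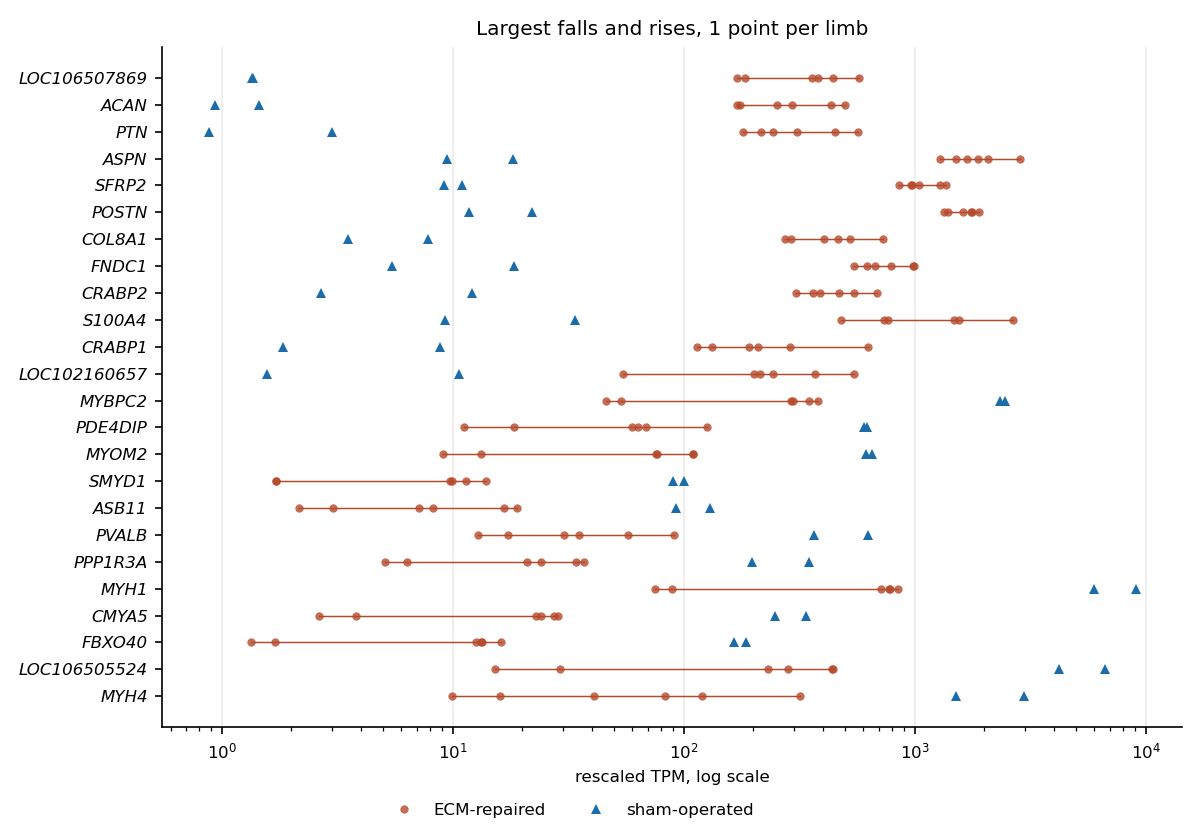
Rescaled TPM on a log scale of the 12 genes with the largest rises (top) and the 12 with the largest falls (bottom), with 1 point per limb for ECM-repaired (circles, joined from lowest to highest) and sham-operated (triangles) muscle. The groups do not overlap for any of the 24 genes, and the ECM-repaired limbs spread more for the falls than for most of the rises.

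The genes of the contractile apparatus fell together. All 11 tested genes of the fast-twitch sarcomere list were lower, with a median log2 fold change of -3.25. All 10 slow-twitch genes were lower, with a median of -3.07, against 0.046 over all tested genes. The fast-twitch genes summed to 20.5 and 19.3% of named-gene TPM in the shams and to 1.31 to 6.39% in ECM-repaired limbs. The slow-twitch genes summed to 4.53 and 4.41%, and to 0.318 to 1.65%. Both sums were therefore lower in every ECM-repaired limb than in either sham, and pig 014 was lowest in both. TNNI2, the fast inhibitory troponin, stood at 23770 and 21060 and at 1318, 2422 and 5488 (-3.15 ± 0.62, limma adjusted p = 0.00120). ACTN2, the alpha-actinin that crosslinks actin at the Z-disc, stood at 1862 and 2218 and at 52.3, 220 and 463 (-3.48 ± 0.87, limma adjusted p = 0.00492). MYH7, the slow myosin heavy chain, stood at 4675 and 4854 and at 81.9, 735 and 1069 (-3.46 ± 1.18, limma adjusted p = 0.0242). MYH2, the heavy chain of type 2A fibers, stood at 1651 and 2442 and at 53.7, 293 and 1261 (-2.87 ± 0.96, limma adjusted p = 0.0224). No ECM-repaired limb reached a sham for any of these 4 genes, although pig 024 came near for MYH2.

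The slow-twitch calls rested on having 2 shams. Without the sham of pig 025, 1 of the 10 slow-twitch genes passed and 8 of the 11 fast-twitch genes did, and without that of pig 026, 3 and 10 did. The fold changes themselves changed little, since MYH7 was at -3.52 and -3.43 and TNNT1, the slow tropomyosin-binding troponin, at -3.06 and -3.31 in the same fits. MYH1 had a limma adjusted p of 0.0509 without pig 025, and MYH2 and MYH7 did not pass with TPM as deposited (limma adjusted p = 0.0873 and 0.0585) or without either sham (limma adjusted p = 0.0804 and 0.110 without pig 025, 0.130 and 0.106 without pig 026).

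Of 14 genes of the sarcomere scaffold and Z-disc, 13 were lower, with a median of -3.39, and the list held 2.22 and 2.68% of named-gene TPM in the shams and 0.118 to 1.17% in ECM-repaired limbs. DES, the intermediate filament desmin, stood at 5242 and 6828 and at 442, 891 and 1571 (-2.75 ± 0.64, limma adjusted p = 0.00341). TTN, the giant spring protein titin, stood at 4933 and 4718 and at 19.4, 742 and 1761 (-4.04 ± 1.62, limma adjusted p = 0.0478). Pigs 014 and 018 were at 19.4 and 28.9 for TTN and the other 4 limbs at 689.9 or more. Its call was lost with TPM as deposited, without either sham, without pig 014 or 018, and in 4 other settings, with limma adjusted p between 0.0501 and 0.173. NEB, the ruler protein nebulin, stood at 3605 and 4240 and at 38.3, 569 and 1033 (limma adjusted p = 0.0172). It did not pass without either sham (limma adjusted p = 0.0835 and 0.0918) or as deposited (limma adjusted p = 0.0504). The member that did not pass was XIRP2, at 947 and 958 and at 27.1, 260 and 925, which passed without pig 024 (limma adjusted p = 0.0314). Without pig 025, 5 of the 14 passed.

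Genes that couple the nerve signal to calcium release were lower in 8 of 9 cases, with a median of -3.20. RYR1, the calcium release channel, stood at 863 and 879 and at 9.84, 142 and 166 (-3.76 ± 1.13, limma adjusted p = 0.0134). CASQ1, the calcium store protein of fast fibers, stood at 3787 and 3154 and at 81.0, 472 and 718 (-3.44 ± 0.83, limma adjusted p = 0.00413). CACNG1, a calcium channel subunit, fell by 3.28 on the log2 scale. The ECM-repaired limbs lay below both shams for all 3. CASQ2, the calsequestrin of slow and cardiac muscle, did not pass, at 10.8 and 22.4 and at 6.22, 13.2 and 26.9. RYR1 did not pass without either sham (limma adjusted p = 0.0776 and 0.0718).

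Genes linked to the neuromuscular junction and to loss of nerve supply did not fall with the fiber genes. Of 5 tested genes of 15 listed, 3 were higher, beside 31.9% of all tested genes, and none lower. CHRNE, the epsilon subunit of the adult acetylcholine receptor, stood at 0.370 and 0.891 and at 3.82, 4.51 and 5.47 (2.21 ± 0.28, limma adjusted p = 8.15e-05). RUNX1, a transcription factor induced in denervated muscle and also present in immune cells and fibroblasts, stood at 0.496 and 2.55 and at 8.22, 10.7 and 15.01 (2.69 ± 0.39, limma adjusted p = 0.000191). All ECM-repaired limbs were above both shams for both genes. CHRNE and RUNX1 were each under 1 TPM in at least 1 sham. They were tested only because every ECM-repaired limb held at least 1 TPM, so the count is partly set by the filter. NCAM1, an adhesion molecule of denervated and regenerating fibers, overlapped between the groups, at 2.98 and 7.95 and at 6.54, 10.4 and 13.8. It rose by 0.96 on the log2 scale (limma adjusted p = 0.0332), and the call was lost without pig 025 (0.28, limma adjusted p = 0.571) and without pig 013, 021 or 024 (limma adjusted p between 0.0511 and 0.0539). CHRNA1, the receptor's alpha subunit, differed more between the shams, at 14.5 and 118, than between the groups (limma adjusted p = 0.848).

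Among genes of embryonic or regenerating fibers, 3 of 5 tested were lower, beside 28.5% of all tested genes, and none higher. MYOD1, a master regulator of myoblasts, stood at 19.2 and 23.6 and at 1.24, 2.47 and 6.41 (-2.80 ± 0.53, limma adjusted p = 0.000952). CDH15, the M-cadherin of satellite cells and myoblasts, stood at 21.1 and 19.9 and at 0.728, 3.59 and 5.08 (limma adjusted p = 0.00273). MYF5, a regulator of early myoblasts, was low in both groups, at 2.14 and 4.11 and at 0.374, 0.923 and 1.74, and its call was lost without pig 026 (limma adjusted p = 0.123) and as deposited (limma adjusted p = 0.139). All ECM-repaired limbs were below both shams for these 3. The fetal cardiac-type genes ACTC1 and TNNT2 were spread widely and did not pass. TNNT2 stood at 2.52 and 18.8 in the shams and at 2.86 in pig 021 but 33.4 to 92.5 in the other 5 ECM-repaired limbs (2.23 ± 1.10, limma adjusted p = 0.0988, and 0.0398 as deposited). Without pig 021 it passed (2.91, limma adjusted p = 0.00407). The median of the 5 genes was -1.33. PAX7 and MYOG, markers of satellite cells and of differentiating myoblasts, were not analysed here.

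The 10 tested genes of a list of muscle regulators, which holds transcription factors and the secreted factor MSTN, were all lower, with a median of -2.31. MSTN, which encodes the growth inhibitor myostatin, stood at 23 and 17.3 and at 0.375, 1.12 and 2.38 (-3.74 ± 0.60, limma adjusted p = 0.000361). MEF2A, a transcription factor of differentiated fibers, stood at 26.9 and 25.1 and at 3.07, 4.88 and 10.8 (-2.19 ± 0.39, limma adjusted p = 0.000642). Neither gene overlapped between the groups. MEF2C, a related factor that endothelium also carries, did not pass without pig 025 (limma adjusted p = 0.0557).

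Genes of muscle atrophy and proteolysis were lower in 7 of 8 cases, with a median of -2.88. FBXO32, the ubiquitin ligase atrogin-1, stood at 56.1 and 59.5 and at 2.04, 6.73 and 12.2 (-3.18 ± 0.77, limma adjusted p = 0.00402). CAPN3, the muscle calpain, stood at 544 and 489 and at 15.7, 67.7 and 95.6 (-3.37 ± 0.75, limma adjusted p = 0.00262). FOXO1, a transcription factor that many cells carry, did not pass, at 11.4 and 12.6 and at 13.3, 15.4 and 19.1, and was higher as deposited (1.02, limma adjusted p = 0.00700). FOXO3 fell by 1.16 on the log2 scale (limma adjusted p = 0.0103) but not as deposited or without pig 026 (limma adjusted p = 0.329 and 0.0817).

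**Figure D3:**
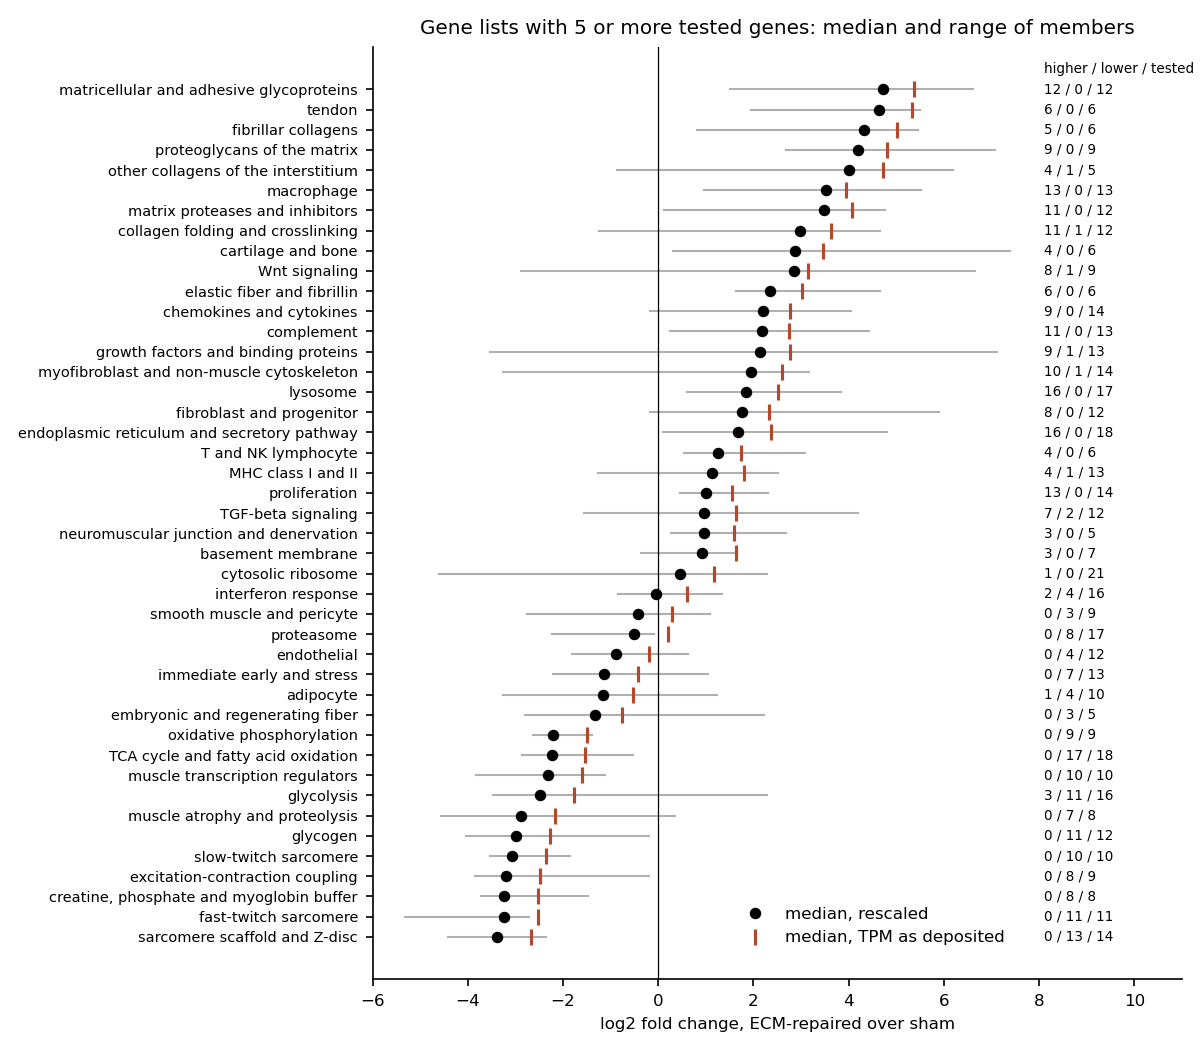
Median (points, rescaled values, and bars, TPM as deposited) and range (lines) of the log2 fold change of ECM-repaired over sham-operated muscle for the 43 gene lists with 5 or more tested genes, with the number higher, lower and tested at the right. Matrix lists lie at the top with medians up to 4.72, lists of the muscle fiber and its metabolism at the bottom with medians down to -3.39, and the median changes sign between scales for the interferon, smooth muscle and proteasome lists.

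Energy metabolism followed the fiber genes, with exceptions in glycolysis. CKM, the muscle creatine kinase that regenerates ATP, stood at 32870 and 25010 and at 1521, 2917 and 6104 (-3.28 ± 0.80, limma adjusted p = 0.00414), and all 8 genes of the creatine, phosphate and myoglobin group were lower. AK1, a muscle adenylate kinase, stood at 1058 and 1192 and at 46.5, 84.8 and 193. SLC6A8, the creatine transporter, fell less, from 87.7 and 90.7 to between 25.5 and 41.7 (-1.48 ± 0.20, limma adjusted p = 0.000121). No ECM-repaired limb reached a sham for these genes. Without pig 025, 5 of the 8 passed, and CKMT2, the mitochondrial creatine kinase, was among those lost (limma adjusted p = 0.0570).

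Glycolysis genes held 10.2 and 8.12% of named-gene TPM in the shams and 1.30 to 3.01% in ECM-repaired limbs, and 11 of 16 tested genes were lower. ENO3, the muscle enolase, stood at 12800 and 9672 and at 602, 1387 and 2608 (-3.18 ± 0.71, limma adjusted p = 0.00264). LDHA, lactate dehydrogenase A, stood at 6511 and 4138 and at 380, 514 and 1182 (-3.15 ± 0.57, limma adjusted p = 0.000716). PFKM, the muscle phosphofructokinase, fell by 3.27 on the log2 scale. Isoforms found in other cells rose. PFKP, the platelet-type phosphofructokinase, stood at 4.74 and 10.1 and at 24.5, 38.2 and 42.9 (2.29 ± 0.32, limma adjusted p = 0.000159). ENO1, the widely expressed enolase, stood at 138 and 124 and at 183, 323 and 647 (1.39 ± 0.39, limma adjusted p = 0.00950). HK1, the hexokinase of most tissues, stood at 3.89 and 9.80 and at 7.74, 32.3 and 53.1, with overlap (limma adjusted p = 0.0498). PFKP was the 1 of these 3 rises that passed without either sham. ENO1 and HK1 lost their calls without pig 025 (limma adjusted p = 0.0574 and 0.363) and without pig 026 (limma adjusted p = 0.0661 and 0.0642), and HK1 also without pig 013, 018, 022 or 024 (limma adjusted p between 0.0769 and 0.0809). GAPDH, often used as a reference gene, was among the falls, at 86760 and 51940 and at 7695, 9231 and 16110 (-2.75 ± 0.65, limma adjusted p = 0.00360, and 0.0530 without pig 025).

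Glycogen genes were lower in 11 of 12 cases, with a median of -2.98. PYGM, the muscle glycogen phosphorylase, stood at 7365 and 7618 and at 183, 804 and 1214 (-3.70 ± 0.77, limma adjusted p = 0.00166). GBE1, the branching enzyme, did not pass, at 26.9 and 23.5 and at 19.01, 22.4 and 24.1.

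In mitochondria, 17 of 18 genes of the tricarboxylic acid cycle and fatty acid oxidation were lower, with a median of -2.24, and all 9 tested genes of oxidative phosphorylation were lower, with a median of -2.21. CS, citrate synthase, stood at 230 and 226 and at 26.2, 39.0 and 52.3 (-2.55 ± 0.41, limma adjusted p = 0.000359). OGDH, a subunit of the oxoglutarate dehydrogenase complex, fell from 193 and 221 to between 50.8 and 76.2 (-1.71 ± 0.24, limma adjusted p = 0.000170). ATP5B, the catalytic subunit of ATP synthase, stood at 1932 and 1886 and at 295, 321 and 571 (-2.36 ± 0.45, limma adjusted p = 0.000971). The groups did not overlap for these. COX7A1, a cytochrome oxidase subunit of muscle and heart, stood at 2238 and 2015 and at 201, 440 and 1026, and its call was lost without either sham (limma adjusted p = 0.114 and 0.0860). The oxidative phosphorylation count was 3 of 9 without pig 025 and 6 of 9 without pig 026, whereas the cycle and oxidation genes kept 17 and 16 calls. CPT2 did not pass, at 20.03 and 23.1 and at 12.2, 14.4 and 18.3 (-0.52, limma adjusted p = 0.0581), although all ECM-repaired limbs lay below both shams. It passed in 5 settings, among them median-of-ratios rescaling, the 8 libraries alone and without pig 021 (limma adjusted p = 0.0309, 0.0457 and 0.0457).

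**Figure D4:**
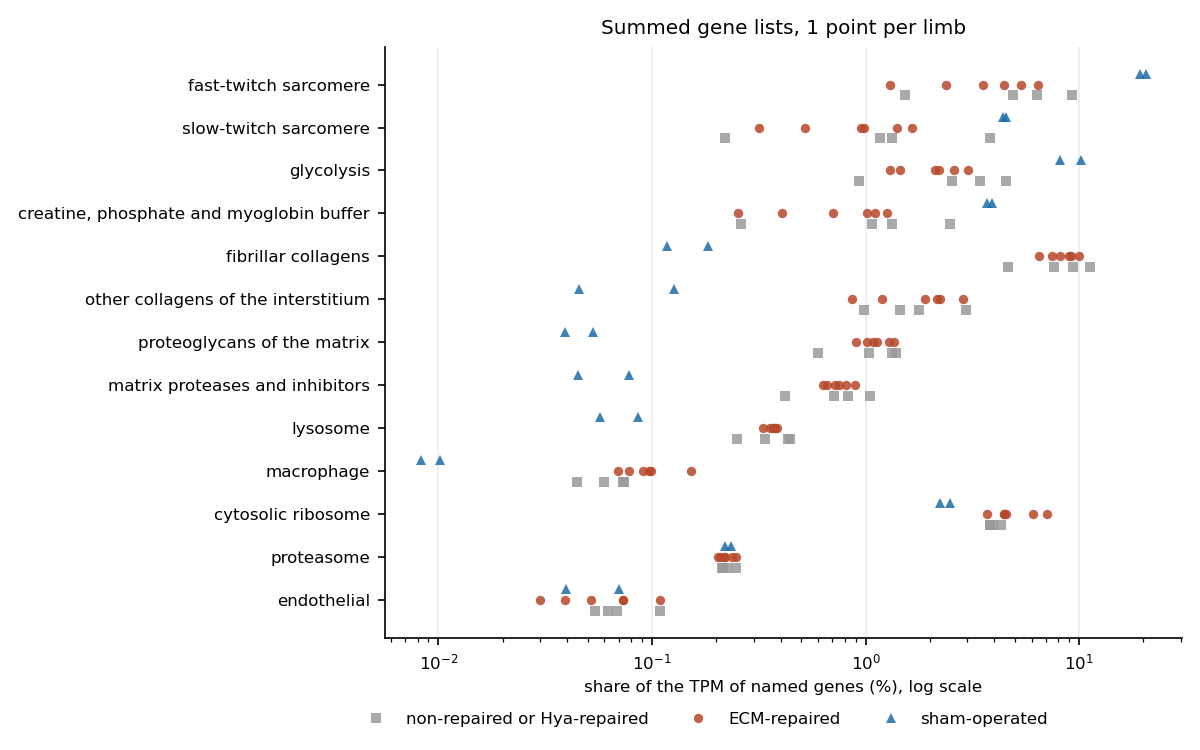
Share of the TPM of named genes (%, log scale) held by each of 13 gene lists, with 1 point per limb for sham-operated, ECM-repaired, and non-repaired or Hya-repaired muscle. Fast-twitch genes fall from 20.5 and 19.3% in the shams to 1.31 to 6.39% in ECM-repaired limbs while fibrillar collagens go from 0.117 and 0.183% to 6.47 to 9.96%, and proteasome and endothelial shares overlap.

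Collagens and the other genes of the interstitial matrix rose by far more than the median gene. Fibrillar collagens held 0.117 and 0.183% of named-gene TPM in the shams and 6.47 to 9.96% in ECM-repaired limbs, a ratio of mean shares of 55.8. COL3A1 stood at 944 and 1095 in the shams and at 22840, 35870 and 48820 in ECM-repaired limbs (5.14 ± 0.45, limma adjusted p = 8.81e-06) and COL1A2 at 463 and 678 and at 17010, 25610 and 31890 (5.47 ± 0.42, limma adjusted p = 4.23e-06). These chains of type III and type I collagen were the 2 most abundant named transcripts of ECM-repaired muscle, above ACTA1. COL5A1 and COL5A2, which regulate the width of collagen fibrils, stood at 12.5 and 24.9 and at 13.4 and 20.3 in the shams, and at 115 to 515 and 242 to 559 in ECM-repaired limbs. Of 6 tested fibrillar collagens 5 rose, and COL5A3 overlapped, at 8.48 and 12.1 and at 9.07, 19.8 and 37.8 (limma adjusted p = 0.138, and 0.0423 as deposited and 0.0491 without pig 018). COL1A1 is listed at 0 in every library and was not used.

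Of 5 other interstitial collagens 4 rose and 1 fell. COL6A1, a chain of the beaded filaments around cells, stood at 183 and 595 and at 3329, 7040 and 10990 (4.26 ± 0.57, limma adjusted p = 0.000120), and COL6A2 and COL6A3 rose by 4.0 and 3.61 on the log2 scale. COL8A1, a short-chain collagen of vessel walls and scars, stood at 3.53 and 7.84 and at 276, 434 and 727. Each of these had its lowest ECM-repaired limb above the higher sham. COL15A1, a collagen next to the basement membranes of muscle fibers and capillaries, went down from 86.0 and 82.8 to between 29.9 and 58.6 (-0.87 ± 0.26, limma adjusted p = 0.0142). It did not pass as deposited (-0.16, limma adjusted p = 0.700) or without either sham (limma adjusted p = 0.0819 and 0.0648).

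All 9 tested proteoglycans rose, with a median of 4.19. DCN, decorin, which binds collagen and growth factors, was already abundant in sham muscle, at 303 and 262, and stood at 1587, 1810 and 2580 (2.76 ± 0.31, limma adjusted p = 3.63e-05). BGN, biglycan, stood at 45.2 and 101 and at 1643, 2077 and 3638 (5.06 ± 0.43, limma adjusted p = 7.18e-06). LUM, lumican, rose by 3.73 and VCAN, the large proteoglycan versican of provisional matrix, by 4.19 on the log2 scale. Decorin therefore exceeded biglycan in the shams, while the ranges of the 2 overlapped in ECM-repaired limbs.

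All 12 matricellular and adhesive glycoproteins rose, with a median of 4.72, the highest of the lists with 5 or more tested genes. FN1, fibronectin, stood at 61.0 and 117 and at 1884, 2483 and 3707 (4.90 ± 0.41, limma adjusted p = 6.78e-06). TNC, tenascin C, stood at 0.949 and 5.32 and at 49.2, 102 and 136 (4.96 ± 0.55, limma adjusted p = 3.67e-05). All 6 elastic fiber genes rose, with a lower median of 2.35. ELN, elastin, stood at 16.03 and 37.7 and at 61.7, 79.0 and 158, and MFAP2, a microfibril protein, at 7.20 and 26.2 and at 249, 344 and 552. The groups did not overlap for either gene. Without pig 025 the elastic fiber count was 3 of 6, with ELN (1.13, limma adjusted p = 0.0745) and FBN1, fibrillin 1 (1.97, limma adjusted p = 0.0522), among those lost.

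Of 12 genes for collagen folding and crosslinking, 11 rose. LOX, the lysyl oxidase that crosslinks collagen and elastin, stood at 1.41 and 3.34 and at 28.2, 40.4 and 74.7 (4.01 ± 0.43, limma adjusted p = 2.90e-05). LOXL1, a relative with a part in elastic fibers, stood at 2.16 and 4.49 and at 26.8, 31.9 and 37.7 (3.15 ± 0.24, limma adjusted p = 4.40e-06). CRTAP, part of the prolyl 3-hydroxylase complex, and PLOD1, a lysyl hydroxylase, rose by 3.28 and 2.49 on the log2 scale. TGM2, a transglutaminase that links proteins and is abundant in endothelium, fell, at 18.6 and 24.04 and at 4.76, 9.57 and 15.7 (-1.25 ± 0.37, limma adjusted p = 0.0115). Its call was lost as deposited (limma adjusted p = 0.272) and without pig 026 (limma adjusted p = 0.1002).

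Of 12 tested matrix proteases, their inhibitors and related genes, 11 rose, with a median of 3.49. MMP2, a gelatinase, stood at 43.1 and 112 and at 1260, 1849 and 2695 (4.76 ± 0.44, limma adjusted p = 1.20e-05), and MMP14, the membrane protease that activates it, at 8.54 and 18.9 and at 211, 258 and 314. CTSK, the collagen-degrading cathepsin K, stood at 15.5 and 29.7 and at 256, 313 and 441. FAP, a protease of activated fibroblasts, stood at 7.68 and 7.82 and at 152, 203 and 257 (4.57 ± 0.29, limma adjusted p = 2.37e-06). The ECM-repaired limbs were above both shams for all 4. TIMP3, a matrix-bound inhibitor, overlapped, at 230 and 236 and at 163, 246 and 397. MMP13, a collagenase, is listed at 0 in both shams and stood at 0.839, 7.40 and 47.3 in ECM-repaired limbs, with pig 013 highest, and was below the filter for testing. In all, 75 genes were listed at 0 in both shams and above 0 in all 6 ECM-repaired limbs, of which CELSR1, an atypical cadherin, was the 1 with at least 1 TPM in each, at 1.71 to 7.60.

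The basement membrane changed less than the interstitial matrix. Of 7 tested genes 3 rose, beside 31.9% of all tested genes, and none fell, with a median of 0.92. LAMA4, the laminin chain of vessels and nerves, stood at 221 and 243 and at 388, 476 and 696 (1.08 ± 0.26, limma adjusted p = 0.00379, and 0.0526 without pig 025). LAMB1, a laminin beta chain, stood at 8.43 and 21.8 and at 29.1, 46.6 and 49.6 (1.62 ± 0.31, limma adjusted p = 0.000942). COL4A1 and COL4A2, the main chains of type IV collagen, overlapped between the groups, at 115 to 285 and 106 to 334 in ECM-repaired limbs against 80.6 and 180, and 60.2 and 140, in the shams. COL4A1 passed as deposited (1.33, limma adjusted p = 0.0316). Without pig 025, 1 of the 7 passed.

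Tendon and cartilage genes accompanied the matrix. All 6 tested tendon genes rose, beside 31.9% of all tested genes, with a median of 4.64. They held 0.00791 and 0.0276% of named-gene TPM in the shams and 0.284 to 0.577% in ECM-repaired limbs. TNMD, tenomodulin, a membrane protein of tendon cells, stood at 1.48 and 9.04 and at 73.9, 146 and 446 (5.17 ± 0.81, limma adjusted p = 0.000320). COMP, a pentameric matrix protein, stood at 3.78 and 21 and at 252, 407 and 947. FMOD and THBS4, which the tendon list shares with general matrix, rose by 4.71 and 4.57 on the log2 scale. Pig 018 was highest for TNMD and pig 022 for COMP, and the groups did not overlap. Of 6 tested cartilage and bone genes, 4 rose, MGP, RUNX2 and ACAN among them, beside 31.9% of all tested genes. MGP, an inhibitor of calcification, stood at 201 and 369 and at 1969, 2692 and 4278. RUNX2, the osteoblast regulator, stood at 0.456 and 1.70 and at 4.19, 7.10 and 12.8. RUNX2 and ACAN were tested only through the ECM-repaired limbs, so the count is partly set by the filter. BGLAP, osteocalcin, overlapped (limma adjusted p = 0.575). Whether tendon or fascia was sampled with the muscle was not tested.

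Genes of fibroblasts and their progenitors were higher in 8 of 12 cases, beside 31.9% of all tested genes, with a median of 1.76. THY1, a surface protein of fibroblasts, stood at 49.0 and 73.9 and at 1644, 1871 and 3463, with pig 014 highest (5.07 ± 0.40, limma adjusted p = 5.29e-06). PI16, a marker of fibroblasts around vessels and fascia, stood at 17.4 and 22.6 and at 173, 232 and 347 (3.56 ± 0.28, limma adjusted p = 5.29e-06). PDGFRA, the receptor that marks fibro-adipogenic progenitors, stood at 3.28 and 2.74 and at 11.7, 14.3 and 17.5 (2.09 ± 0.20, limma adjusted p = 1.54e-05). CD34, which endothelium also carries, did not pass, at 18.1 and 37.5 and at 10.9, 26.5 and 42.3. PDGFRB, a receptor of pericytes and fibroblasts, overlapped too (1.07 ± 0.48, limma adjusted p = 0.0744) and passed as deposited (1.74, limma adjusted p = 0.0158).

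In the non-muscle cytoskeleton, 10 of 14 genes rose and 1 fell, beside 31.9% higher and 28.5% lower among all tested genes. The median was 1.94. ACTB, cytoplasmic beta-actin, stood at 290 and 333 and at 841, 1429 and 2179 (2.16 ± 0.38, limma adjusted p = 0.000595), while ACTA1, the skeletal isoform, stood at 82920 and 64070 and at 3367, 9184 and 12680 (-3.27 ± 0.76, limma adjusted p = 0.00325). TPM4, a non-muscle tropomyosin, stood at 50.6 and 79.7 and at 421, 486 and 822 (3.02 ± 0.33, limma adjusted p = 2.98e-05), while TPM2, which slow and fast fibers use, fell by 3.26 on the log2 scale. Actin and tropomyosin thus showed rises of the non-muscle and falls of the sarcomeric isoform. ACTA2, the smooth muscle actin that marks myofibroblasts, overlapped, at 116 and 246 and at 161, 248 and 384 (0.59 ± 0.37, limma adjusted p = 0.191, and 0.0135 as deposited). TAGLN, which myofibroblasts and smooth muscle share, rose, at 131 and 303 and at 525, 670 and 981. LGALS1, a lectin of many stromal cells named here after its values were seen, was the fourth most abundant named transcript of ECM-repaired muscle, at 864 and 1570 and at 4302, 10860 and 26740.

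In TGF-beta signaling, which drives collagen synthesis, 7 of 12 genes rose and 2 fell, beside 31.9% higher and 28.5% lower among all tested genes. Among the ligands, TGFB1 stood at 8.52 and 23.6 and at 46.0, 64.0 and 75.4 (2.07 ± 0.34, limma adjusted p = 0.000395), and TGFB3 at 2.60 and 8.16 and at 50.4, 62.3 and 94.7 (3.69 ± 0.37, limma adjusted p = 1.96e-05). TGFB2 overlapped, at 20.6 and 12.2 and at 17.8, 29.4 and 34.6 (0.75, limma adjusted p = 0.0737). TGFB2 passed as deposited (limma adjusted p = 0.00970), without both limbs of pig 017 (limma adjusted p = 0.0408), with the 8 libraries alone (limma adjusted p = 0.0389) and without pig 013 (limma adjusted p = 0.0399). TGFBI, a secreted protein named for its induction by TGF-beta, stood at 6.16 and 11.7 and at 107, 176 and 249 (4.19 ± 0.36, limma adjusted p = 8.64e-06). The intracellular members that fell were SMAD3, which carries the signal, at 14.6 and 15.3 and at 4.34, 6.71 and 10.6 (-1.12 ± 0.28, limma adjusted p = 0.00454), and SMAD7, its inhibitor, at 7.84 and 7.66 and at 1.21, 2.58 and 3.40 (-1.55 ± 0.31, limma adjusted p = 0.00129). Both kept their direction but did not pass with TPM as deposited (limma adjusted p = 0.359 and 0.0724).

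In Wnt signaling 8 of 9 tested genes rose and 1 fell, with a median of 2.84. The rises were led by secreted frizzled-related proteins, which bind Wnt ligands. SFRP1 stood at 2.41 and 2.38 and at 83.6, 117 and 196 (5.32 ± 0.38, limma adjusted p = 3.14e-06), and SFRP4 at 9.56 and 15.9 and at 245, 340 and 506 (4.77 ± 0.32, limma adjusted p = 2.40e-06). The fall was in the same family, since FRZB stood at 126 and 117 and at 8.80, 18.02 and 24.96 (-2.87 ± 0.53, limma adjusted p = 0.000828). FRZB lay above SFRP1, SFRP2 and SFRP4 in the shams and below all 3 in the ECM-repaired limbs, in rescaled TPM, and its call held on both scales and without either sham.

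Among growth factors and their binding proteins, 9 of 13 rose and 1 fell, beside 31.9% higher and 28.5% lower among all tested genes. IGF1, a growth factor for muscle and connective tissue, stood at 2.13 and 3.73 and at 23.7, 27.8 and 34.1 (3.09 ± 0.28, limma adjusted p = 1.13e-05). IGF2 overlapped, at 239 and 217 and at 166, 266 and 330 (limma adjusted p = 0.723, and 0.0497 as deposited). IGFBP2, which binds both, rose from 11.97 and 18.4 to between 40.8 and 91.6. VEGFA, the growth factor of vessels, which muscle fibers also secrete, stood at 205 and 256 and at 2.83, 35.8 and 70.7 (-3.53 ± 1.15, limma adjusted p = 0.0203). Every ECM-repaired limb lay below both shams for VEGFA, but its call was lost as deposited (limma adjusted p = 0.0585) and without either sham (limma adjusted p = 0.0886 and 0.106).

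The secretory machinery rose with the secreted proteins. Of 18 genes of the endoplasmic reticulum and its transport vesicles 16 were higher and none lower, with a median of 1.67. KDELR3, a receptor that returns chaperones to the reticulum, stood at 5.52 and 7.83 and at 133, 192 and 308 (4.81 ± 0.33, limma adjusted p = 2.37e-06). SEC24D, a coat protein of vesicles that export procollagen, stood at 9.70 and 9.66 and at 61.0, 70.4 and 92.9 (2.84 ± 0.22, limma adjusted p = 4.27e-06). SEC61B, part of the channel through which new proteins enter, stood at 43.2 and 49.0 and at 208, 357 and 596. SSR1, of a complex associated with that channel, did not pass, at 53.5 and 48.5 and at 46.3, 53.3 and 63.5. It was higher as deposited (limma adjusted p = 0.0157).

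Lysosomal genes were higher in 16 of 17 cases, with a median of 1.83. CTSB, cathepsin B, stood at 85.8 and 131 and at 421, 550 and 735 (2.38 ± 0.29, limma adjusted p = 6.31e-05). The list's share was 0.0571 and 0.0860% in the shams and 0.333 to 0.386% in ECM-repaired limbs, without overlap. LAMP2, a lysosomal membrane protein, did not pass (0.61 ± 0.26, limma adjusted p = 0.0645), but did as deposited and without pig 022 (limma adjusted p = 0.00156 and 0.0438).

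All 13 tested macrophage markers rose, beside 31.9% of all tested genes, with a median of 3.52. GPNMB, a further member at 0.729 in the sham of pig 025, was tested only because every ECM-repaired limb held at least 1 TPM. The count is thus partly set by the filter. The list held 0.00828 and 0.0102% of named-gene TPM in the shams and 0.0691 to 0.153% in ECM-repaired limbs. CD163, the hemoglobin scavenger receptor, stood at 6.001 and 5.36 and at 25.5, 32.3 and 36.4 (2.35 ± 0.18, limma adjusted p = 4.23e-06). MRC1, the mannose receptor CD206, stood at 1.74 and 1.91 and at 20.3, 22.7 and 30.4 (3.38 ± 0.18, limma adjusted p = 1.26e-06). CD68, a lysosomal protein of macrophages, stood at 2.78 and 4.29 and at 29.6, 47.6 and 82.4, and CD14, the lipopolysaccharide co-receptor, at 1.97 and 4.05 and at 24.6, 40.3 and 51.6. The groups were far apart for all 4, and 10 of the 13 passed without pig 025 and 12 without pig 026. IL10, an anti-inflammatory cytokine of macrophages, stood at 0.352 and 0.115 and at 1.33, 3.09 and 7.94 (2.33 ± 0.52, limma adjusted p = 0.00262). IL10 was likewise tested only through the ECM-repaired limbs. TNF was below the filter, at 0.281 and 1.06 and at 0.247, 0.595 and 0.763, and was not tested.

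Complement genes rose in 11 of 13 cases, with a median of 2.19. C1QA, C1QB and C1QC, the chains of C1q that macrophages make, stood at 11.8 to 18.8 in the shams and at 199 to 518 in ECM-repaired limbs, with log2 fold changes of 4.43, 4.41 and 4.25. CFD, factor D, which fat cells also secrete, did not pass, at 97.6 and 111 and at 81.8, 140 and 207, and was higher as deposited (limma adjusted p = 0.00299). Of 14 tested chemokines and cytokines 9 rose, beside 31.9% of all tested genes. CCL21, which draws lymphocytes and dendritic cells to lymphatics, stood at 12.95 and 10.3 and at 121, 206 and 385 (4.05 ± 0.42, limma adjusted p = 2.35e-05). CCL24, an attractant for eosinophils, stood at 7.28 and 5.94 and at 33.5, 50.8 and 77.1, and CCL2, which draws monocytes, at 7.501 and 7.29 and at 26.1, 39.1 and 64.5. CXCL12, a chemokine of stromal cells, did not differ beyond its spread, at 221 and 234 and at 155, 196 and 315.

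Lymphocyte genes were low and less regular. Of 16 listed T and NK genes 6 passed the filter, and 4 of these rose, beside 31.9% of all tested genes. The rises, NKG7, CD4, CD2 and CD3G, were each under 1 TPM in at least 1 sham. They were tested only because every ECM-repaired limb held at least 1 TPM, so this count is partly set by the filter. NKG7, a granule protein of cytotoxic cells, stood at 0.900 and 2.36 and at 10.03, 16.1 and 29.1 (3.07 ± 0.36, limma adjusted p = 5.51e-05). CD4, which macrophages also carry in some species, stood at 0.0774 and 0.728 and at 1.52, 3.12 and 8.28 (limma adjusted p = 0.00377). CD3E and CD3G, chains of the T cell receptor complex, stood at 1.09 to 12.5 and 1.71 to 10.02 in ECM-repaired limbs and overlapped with the shams. Pig 018 was the highest limb for NKG7, CD4, CD3E, CD3G, CD2 and CCL5. CD3E did not pass and CD3G did (limma adjusted p = 0.0755 and 0.0426). CD3E passed without pig 022 (limma adjusted p = 0.0216), CD3G did not without pig 013 or 024 (limma adjusted p = 0.0691 and 0.0602), and the calls of CD3G and CD2 were lost without either sham (limma adjusted p between 0.0676 and 0.293). Without pig 025, 1 of the 6 passed, and without pig 026, 2 did. CCL5, a T cell chemokine, was lost without pig 025 (limma adjusted p = 0.194). JCHAIN, the joining chain of secreted antibodies, was the 1 B and plasma cell gene tested and overlapped (limma adjusted p = 0.472).

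Antigen presentation was mixed. Of 13 tested class I and II genes 4 rose and 1 fell, beside 31.9% higher and 28.5% lower among all tested genes. SLA-DMB, which loads peptide onto class II, stood at 10.4 and 13.2 and at 51.7, 66.3 and 125 (2.51 ± 0.29, limma adjusted p = 4.79e-05). SLA-DRA, the alpha chain of a class II molecule, stood at 107 and 139 and at 185, 246 and 723 (1.23 ± 0.42, limma adjusted p = 0.0247), with pig 018 highest, and did not pass without either sham (limma adjusted p = 0.190 and 0.0641). SLA-3, a class I gene, overlapped (-1.27 ± 0.50, limma adjusted p = 0.0443) and lost its call as deposited and without either sham (limma adjusted p = 0.339, 0.220 and 0.0991), and without pig 021, 022 or 024 (limma adjusted p between 0.0583 and 0.0741). B2M, the shared light chain of class I, was level, at 742 and 711 and at 613, 663 and 1159. SLA-1 and SLA-DRB1, which differ between animals in sequence and share it with near copies, ranged from 1.04 to 128 and from 0.787 to 236 among ECM-repaired limbs and are uncertain.

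Interferon response genes had a median of -0.06, near that of all genes, and 0.60 as deposited. Of 16 tested, 2 rose and 4 fell, beside 31.9% higher and 28.5% lower among all tested genes. ISG12(A) stood at 20.01 and 24.9 and at 36.4, 58.7 and 88.2, and GBP2, a guanylate-binding protein, at 5.14 and 3.84 and at 7.17, 8.99 and 12.5. IFIT1, IFIT2 and the RNA sensor DDX58 fell by 0.85, 0.81 and 0.75 on the log2 scale and did not pass as deposited. None of the falls passed without pig 025, and 2 of the 4 did without pig 026. IFIT1 also lost its call without pig 013, 014, 018 or 022 (limma adjusted p between 0.0502 and 0.0662). Neither rise passed without pig 026 (limma adjusted p = 0.0675 for ISG12(A) and 0.0769 for GBP2), and ISG12(A) did not without pig 025 (limma adjusted p = 0.157).

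Of 12 tested endothelial genes, 4 fell and none rose, beside 28.5% of all tested genes lower, and the median was -0.89. As deposited the median was -0.19, with 1 rise and no falls, and without pig 026 there was 1 rise. KDR, the main VEGF receptor, stood at 33.5 and 47.4 and at 10.9, 17.8 and 26.7 (-1.16 ± 0.33, limma adjusted p = 0.0107), and FLT1, another, at 81.8 and 63.0 and at 7.68, 23.6 and 39.6 (-1.82 ± 0.58, limma adjusted p = 0.0181). CDH5, the cadherin of endothelial junctions, stood at 30.4 and 43.3 and at 7.603, 16.3 and 29.8. These and ESAM, an adhesion molecule of the same junctions, did not pass as deposited (limma adjusted p between 0.171 and 0.451). None of the 4 falls passed without pig 026 and 1 passed without pig 025, and ESAM did not without pig 018 (limma adjusted p = 0.0535). PECAM1, the platelet and endothelial adhesion molecule, overlapped, at 96.0 and 160 and at 50.7, 114 and 165. Both tested lymphatic genes rose. LYVE1, a hyaluronan receptor of lymphatics and of resident macrophages, stood at 1.95 and 1.65 and at 15.3, 21.05 and 29.4 (3.24 ± 0.23, limma adjusted p = 2.98e-06), and PDPN, which fibroblasts also carry, at 7.98 and 4.40 and at 19.1, 27.8 and 32.1.

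Beside 28.5% of all tested genes lower, 3 of 9 genes of smooth muscle and pericytes fell. Of these DES and SYNM, synemin, are also intermediate filaments of skeletal fibers, and CNN1, a calponin of contractile smooth muscle, overlapped between groups, at 41.7 and 56.8 and at 14.2, 23.9 and 41.7 (-0.95 ± 0.32, limma adjusted p = 0.0230). CNN1 did not pass as deposited or without pig 026 (limma adjusted p = 0.523 and 0.184). RGS5, a pericyte marker, did not pass, at 58.7 and 72.3 and at 28.0, 44.3 and 53.8 (limma adjusted p = 0.0577), and passed without pig 021 or 024 (limma adjusted p = 0.0418 and 0.0406).

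Of 12 listed Schwann cell and nerve genes 2 were tested. S100B, a calcium-binding protein of Schwann cells that fat and cartilage cells also carry, stood at 27.4 and 20.7 and at 32.5, 51.4 and 99.8 (1.196 ± 0.35, limma adjusted p = 0.0119, and 0.107 without pig 026), whereas MBP, a myelin protein, overlapped. Of 10 adipocyte genes 4 fell and 1 rose, beside 28.5% lower and 31.9% higher among all tested genes. CD36, a fatty acid transporter that muscle fibers and capillaries share, stood at 249 and 148 and at 9.88, 20.5 and 39.3 (-3.25 ± 0.71, limma adjusted p = 0.00234), and LPL, the lipase that frees fatty acids in capillaries, fell by 2.75 on the log2 scale, a call lost without pig 025 (limma adjusted p = 0.0838). LIPE, the hormone-sensitive lipase of fat cells, stood at 6.11 and 9.05 and at 2.11, 2.57 and 3.80 (-1.30 ± 0.31, limma adjusted p = 0.00402), and did not pass as deposited or without pig 026 (limma adjusted p = 0.149 and 0.0634). GPAM, an enzyme of triglyceride synthesis, fell by 1.79 on the log2 scale. PLIN1, ADIPOQ and FABP4, which are more restricted to fat, overlapped, with FABP4 at 98.5 and 93.3 and at 62.5, 88.3 and 119. CEBPA, a regulator of fat cells and myeloid cells, rose (1.24, limma adjusted p = 0.0101) but not without pig 025 (limma adjusted p = 0.270).

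Proliferation genes were low in both groups and higher in ECM-repaired limbs in 13 of 14 cases, beside 31.9% of all tested genes, with a median of 1.00. TYMS, RRM2 and TOP2A, given below, were under 1 TPM as deposited in the sham of pig 025. They were tested only through the ECM-repaired limbs, so the count is partly set by the filter. TYMS, which makes thymidylate for DNA, stood at 1.46 and 1.82 and at 6.61, 10.1 and 14.5 (2.30 ± 0.24, limma adjusted p = 2.23e-05), and RRM2, a ribonucleotide reductase subunit, at 1.18 and 1.79 and at 5.17, 6.85 and 15.9. TOP2A, the topoisomerase of dividing cells, stood at 1.25 and 2.19 and at 3.32, 3.53 and 4.74 (0.98 ± 0.25, limma adjusted p = 0.00564). The groups did not overlap for these 3, although TOP2A did not pass without pig 025 (limma adjusted p = 0.129), and 6 of the 14 passed then. Immediate early and stress genes fell in 7 of 13 cases, of which 2 passed without pig 025 and 1 as deposited, where 3 rose. Over all tested genes, 28.5% were lower after rescaling, and 10.7% were lower and 48.9% higher as deposited. JUN stood at 218 and 218 and at 44.2, 64.3 and 92.2 (-1.76 ± 0.39, limma adjusted p = 0.00247). HSPB1, a small heat shock protein abundant in muscle, stood at 1209 and 738 and at 257, 373 and 439 (limma adjusted p = 0.00415), and did not pass as deposited or without pig 025 (limma adjusted p = 0.0825 and 0.0754). FOS differed among limbs of both groups, at 340 and 118 and at 19.4, 54.2 and 165, and its call did not hold as deposited or without pig 025 (limma adjusted p = 0.174 and 0.340), nor without pig 014, 021 or 022 (limma adjusted p between 0.0606 and 0.0660). The blood and skin genes tested, HBB (hemoglobin beta) and KRT10 (keratin 10), overlapped between the groups (limma adjusted p = 0.940 and 0.932).

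Ribosome and proteasome calls depended on the scale. Of 21 ribosomal protein genes 18 were higher as deposited, beside 48.9% of all tested genes, with a median of 1.18. After rescaling 1 rose, beside 31.9%, with a median of 0.46. The one was RPL3, a protein of the large subunit, at 149 and 222 and at 467, 878 and 1284 (2.28 ± 0.37, limma adjusted p = 0.000390), whereas RPL4 overlapped, at 1149 and 977 and at 743, 1179 and 1549, and was higher as deposited (limma adjusted p = 0.00734). Ribosomal protein genes have many near-identical processed copies, and whether reads were divided among them was not tested. RPS3 ranged from 0.714 to 250 among ECM-repaired limbs. When pig 024, which was lowest for RPL3 and RPL4, was left out, 9 of the 21 rose. Of 17 proteasome genes 8 fell after rescaling, beside 28.5% of all tested genes, with a median of -0.51. As deposited 2 fell and 3 rose, beside 10.7 and 48.9% of all tested genes, with a median of 0.20. PSMD11, of the regulatory cap, fell on both scales, from 159 and 134 to between 22.2 and 41.2 (-2.23 ± 0.33, limma adjusted p = 0.000229). PSMA1, of the catalytic core, overlapped after rescaling (-0.13, limma adjusted p = 0.704) and was higher as deposited (0.58, limma adjusted p = 0.0296). The share of the proteasome list was 0.220 and 0.233% in the shams and 0.203 to 0.248% in ECM-repaired limbs.

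The 6 ECM-repaired limbs differed among themselves in the genes of the muscle fiber, the matrix and lymphocytes. Pig 014 was the lowest limb for 702 of the 1580 genes that were at least 2-fold lower, and pig 018 for 472. Pig 013 or 024 was the highest for 611 and 603 of them. Of the 1905 genes at least 2-fold higher, pig 024 was the lowest limb for 797 and pig 014 the highest for 713. Over the 11 fast-twitch genes, the median log2 difference from the sham mean was -4.44 in pig 014, -3.85 in pig 018, between -3.09 and -2.89 in pigs 022, 024 and 021, and -2.20 in pig 013. Slow-twitch genes gave -4.25 in pig 014 and -2.12 in pig 021. Fibrillar collagens ranged from 3.63 in pig 018 to 4.75 in pig 014. Pig 018 was highest for T and NK genes, at 2.79 against 0.50 to 1.74 in the other 5, and for class I and II genes, at 2.18 against 0.59 to 1.23. These limb medians are descriptions, since the same limbs chose the genes. The median SD among ECM-repaired limbs was 0.43 (log2) for genes at least 2-fold lower, 0.35 for those at least 2-fold higher and 0.31 for genes that did not pass.

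**Figure D5:**
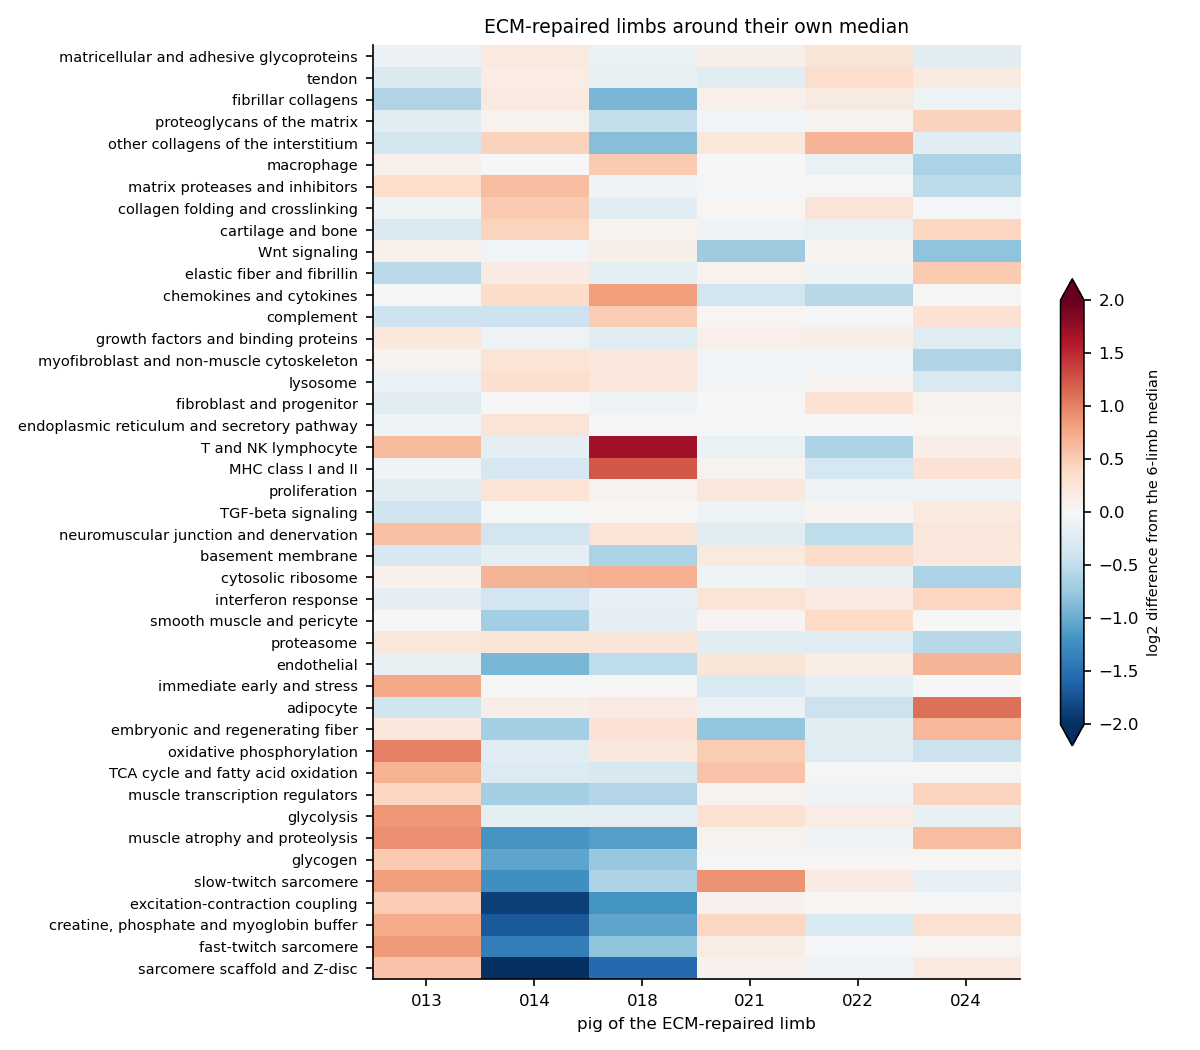
Median log2 difference from the sham mean over the tested genes of each list in each ECM-repaired limb, shown as its distance from the median of the 6 limbs (log2, color scale), with lists ordered by their median fold change. Pigs 014 and 018 are lowest in the sarcomere, excitation-contraction and creatine lists at the bottom, and pig 018 is highest in the T and NK and the class I and II lists.

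Some genes were high in part of the ECM-repaired limbs and low in the rest. S100A6, a calcium-binding protein, was at 17.1 and 21.1 in pigs 013 and 018 and at 1445 to 4558 in the other 4, with 5.26 and 54.6 in the shams. RPL15 was at 2.03 in pig 013 and at 98.9 to 299 in the other 5, with 1.63 and 81.0 in the shams. LOC100513601 was at 2.59 and 2.20 in pigs 021 and 024 and at 232 to 357 in the other 4, with 356 and 4.08 in the shams. Such steps appeared in shams too, and none of the 3 passed (limma adjusted p = 0.0625, 0.254 and 0.859). S100A6 passed without pig 013 (5.95, limma adjusted p = 0.0155) and without pig 018 (5.90, limma adjusted p = 0.0196), the 2 limbs in which it was low. The values of these genes and of SLA-1 are uncertain. Whether kallisto assigned reads of alleles or near copies to different entries was not tested.

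Limbs left without repair and limbs filled with hyaluronic acid hydrogel (Hya), which carried the same injury, were set beside the ECM-repaired limbs as values only. Fast-twitch genes held 4.90 and 6.33% of named-gene TPM in the 2 non-repaired limbs and 1.53 and 9.27% in the 2 Hya-repaired limbs, around the ECM-repaired range of 1.31 to 6.39%. Fibrillar collagens held 9.33 and 7.61%, and 11.2 and 4.63%, around a range of 6.47 to 9.96%. Macrophage genes held 0.0734 and 0.0595%, and 0.0741 and 0.0445%, where the ECM-repaired limbs held 0.0691 to 0.153%. These differences were not tested here.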

How the data were processed

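Total RNA from PT muscle was made into TruSeq libraries, which the authors sequenced as paired ends and pseudoaligned to the pig genome with kallisto, whose version is not given in the sources used here. The deposited values are TPM made by the authors for 11506 named genes in 12 libraries, so sequencing depth and the precision it gives are unknown. Named genes held 71.5 to 82.7% of a library's TPM. Names that a spreadsheet had made into dates (21) were left out, symbols from the reference table replaced 618 of 1833 LOC names, and 239 genes were at 0 in every library.

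Libraries were rescaled with a trimmed mean of log ratios (30% of ratios and 5% of abundances trimmed). Genes with at least 1 TPM in all ECM-repaired or in all sham-operated limbs were kept (8358). A gene under this level in a sham was thus tested only if every ECM-repaired limb reached it. In the same way a gene under it in an ECM-repaired limb needed both shams. For genes at low levels this favors changes toward the group that passed. A pseudocount of 0.5 was added before taking log2. R 4.3.3 and limma 3.58.1 fitted all 12 libraries with 1 coefficient for each group, using the trend and robust options of eBayes, so that the spread was shared by all groups. Both limbs of pig 017 (non-repaired and Hya-repaired) were treated as independent, and leaving them out was an alternative. P was adjusted over all tested genes by Benjamini and Hochberg's method, with a threshold of 0.05. The steps were tested on simulated data in which few genes changed, with rises and falls balanced. This did not test the rescaling where as many genes change as here. Labels give a separate pig for each of the 8 limbs, so p-values measure the spread between animals.

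The members and the 48 gene lists (680 genes, of which 549 were in the table and 487 tested) were chosen with earlier results of these data known. Lists are described by counts and medians, with no test. Genes named are the 12 largest rises and falls that passed on both scales without overlap and with at least median abundance, the first 3 tested genes of each list, the 2 of each list with the smallest p, the 8 most variable among ECM-repaired limbs, the 5 genes at 0 in both shams with the highest ECM-repaired values, and CD163, TGFB1, IL10 and TNF (PAX7 and MYOG, also in the rule, were not analysed here). Examples were taken from these, and 4 are not reported here. List members that went against their list, the remaining adipocyte falls, the most abundant transcripts and ACTB's and TPM4's sarcomeric counterparts were named after their values were seen. The alternatives were TPM as deposited, median-of-ratios rescaling, leaving out the 100 genes highest in sham, pseudocounts of 0.1 and 1, no filter and a filter of 1 TPM in all 8 limbs, limma without trend and robust estimation, the 8 libraries alone, an adjusted p of 0.01, leaving out pig 017, and leaving out each limb.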

Additional observations from a re-analysis of the deposited data

Results flagged for a closer look

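Results were searched for 1 ECM-repaired limb apart from the other 5, over the shares of 48 lists and the log2(rescaled TPM + 0.5) of 199 named genes, with a gap of more than 0.625 of the whole range. There were 10, and chance alone gives about 1 in 20 of those searched. Pig 018 stood apart in 8 of them. It was high in the shares of macrophage genes (0.153%, with the next limb at 0.0995%), T and NK genes (0.0122%, next 0.00619%) and neutrophil and mast cell genes (0.00720%), and on the log2 scale in CCL5 (5.94), CD2 (2.66), SLA-DMB (6.97) and SLA-DRA (9.50). It was low in the laminin chain LAMB1 (4.88). Pig 014 was high in THY1 (11.8) and pig 021 low in TNNT2 (1.75). No cause was tested.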

How the results depend on the processing

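TPM as deposited gave 4091 genes higher and 892 lower, with 3268 and 703 of them at least 2-fold, and a median log2 fold change of 0.71. The median was -0.031 with median-of-ratios rescaling and -0.010 with at least 1 TPM in all 8 limbs. Without the 100 genes highest in sham it was -0.36, and 1767 genes were higher. That setting also rescaled libraries by the sum of the remaining genes, so the changes of genes and of scale cannot be told apart. Leaving out 1 limb at a time gave 3331 to 5297 genes in all, 1824 to 2768 higher, 1507 to 2529 lower, 2824 to 3566 changed at least 2-fold (1583 to 1993 higher and 1241 to 1643 lower) and a median of -0.023 to 0.065, with the lowest values in each case without the sham of pig 025. Leaving out 1 sham leaves 1, which is assumed to vary like the other groups. The median of the embryonic and regenerating fiber list was 0.20 with at least 1 TPM in all 8 limbs, where fewer genes are tested. PSMA1 changed sign to 0.58 as deposited. Of 167 named genes that passed, 144 still did as deposited with the same sign, 126 without pig 025 and 136 without pig 026, and each other setting lost between 0 and 13. Of 30 named genes that did not pass, 14 did as deposited, none without either sham, and 0 to 4 in each other setting. The cause was not tested, other than fewer genes being tested under the stricter filter and fewer samples when limbs are left out. Of the 167 named genes, only 142 had a value without the 100 genes highest in sham, and 129 still passed. With at least 1 TPM in all 8 limbs, 146 had a value and 144 still passed.

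No paired analysis was possible because each ECM-repaired and sham-operated limb came from a different pig and replicate numbers follow accession order. The 2 shams, the unknown depth of each library and the unseparated scaffolds limit these results.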
